A study of Arabidopsis thaliana with 6 samples.

Results

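A set of 10 photorespiration enzymes was followed in seedlings of the splicing factor mutant prp8a-14 and of wild type. The members, chosen by gene identifier, were the glycolate oxidases GOX1 (AT3G14420) and GOX2 (AT3G14415), the catalase CAT2 (AT4G35090), the aminotransferases GGT1 (AT1G23310) and AGT1 (AT2G13360), the glycine decarboxylase subunits GLDP1 (AT4G33010) and GLDT (AT1G11860), the serine hydroxymethyltransferase SHM1 (AT4G37930), the hydroxypyruvate reductase HPR1 (AT1G68010) and the glycerate kinase GLYK (AT1G80380). All 10 were found among the 19807 genes of the deposited table, each with at least 6299 counts in every library, so none was near a detection limit. The prp8a-14 group held 3 libraries (replicates 4 to 6) and the wild type group 3 libraries (replicates 1 to 3). Every library came from whole seedlings 8 days old in the Col-0 background, kept in continuous light on plant nutrient medium, and the series design calls them biological replicates. The sample titles write the allele as prp8a-14 and the genotype label as prp8-14, and neither says what the mutation is. PRP8A encodes the central protein of the spliceosome, and the comparison asked which messenger RNAs differ in level when it is mutated.

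Photorespiration begins when Rubisco fixes oxygen in place of carbon dioxide and makes phosphoglycolate, which cannot enter the Calvin cycle. The salvage route crosses 3 organelles: glycolate from the chloroplast is oxidised in the peroxisome, where catalase removes the hydrogen peroxide that is released, the glyoxylate is aminated to glycine, and mitochondria turn glycine into serine with loss of carbon dioxide and ammonia. Serine returns to the peroxisome, is converted to glycerate, and is phosphorylated in the chloroplast. In leaves these enzymes are among the abundant proteins, and Arabidopsis plants that lack one of them often grow poorly in air and recover at high carbon dioxide.

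The prp8a-14 libraries held 49126331 to 63069817 counts and the wild type libraries 50804951 to 54450545. Replicates of a genotype varied more than counting alone gives (chi-square over its degrees of freedom 8.00 to 15.8). Levels are given as CPM, a gene's count scaled to the library sizes the authors set and expressed in counts per 1e6. Of the 19807 genes, 35.2% passed an adjusted p of 0.05 (limma with Benjamini-Hochberg adjustment, BH), 17.9% as higher and 17.3% as lower in prp8a-14. Higher calls were 50.8% of all calls, but 26.5% when unscaled library totals were used, which moved the median of all genes to -0.09 on the log2 scale. PRP8A itself stood at 501 ± 35.5 CPM in prp8a-14 and 412 ± 22.4 CPM in wild type (SD, n = 3 each), a level that cannot check the labels, since an altered protein can come from a transcript made at any level.

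Of the 10 members 7 rose in prp8a-14 (GOX1, GGT1, AGT1, GLDT, SHM1, HPR1 and GLYK) and 0 fell, while GOX2, CAT2 and GLDP1 did not pass the test. For 8 of the 10, GLDP1 included, every prp8a-14 library lay above every wild type library, and 0 lay wholly below; over all genes these shares were 24.3% and 23.7%. The rises were small, from 0.20 for GLDT to 0.43 for SHM1 on the log2 scale, and the median over the 10 members was 0.28, against 0.0037 over all genes. Abundant genes as a class were also higher in the mutant, a comparison added after the data were seen. Of the 1233 genes at or above the mean level of GLYK, the least abundant member, 56.7% passed, 36.4% as higher and 20.3% as lower. Among 161 other genes at the level ranks of the 9 most abundant members (ranks 23 to 192 by mean CPM), the median log2 change was 0.30 and 57.8% rose, and with the nuclear photosystem and Rubisco lists left out as well, the median was 0.24 and 53.5% rose over 144 genes. The members' median was thus close to that of other genes at their level. It also depended on the normalization: with quantile normalization, which forces all libraries to 1 distribution, the members' median was 0.01, 2 of the 10 rose (HPR1 and GLYK) and 3 fell (GOX2, CAT2 and GLDP1).

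**Figure D1:**
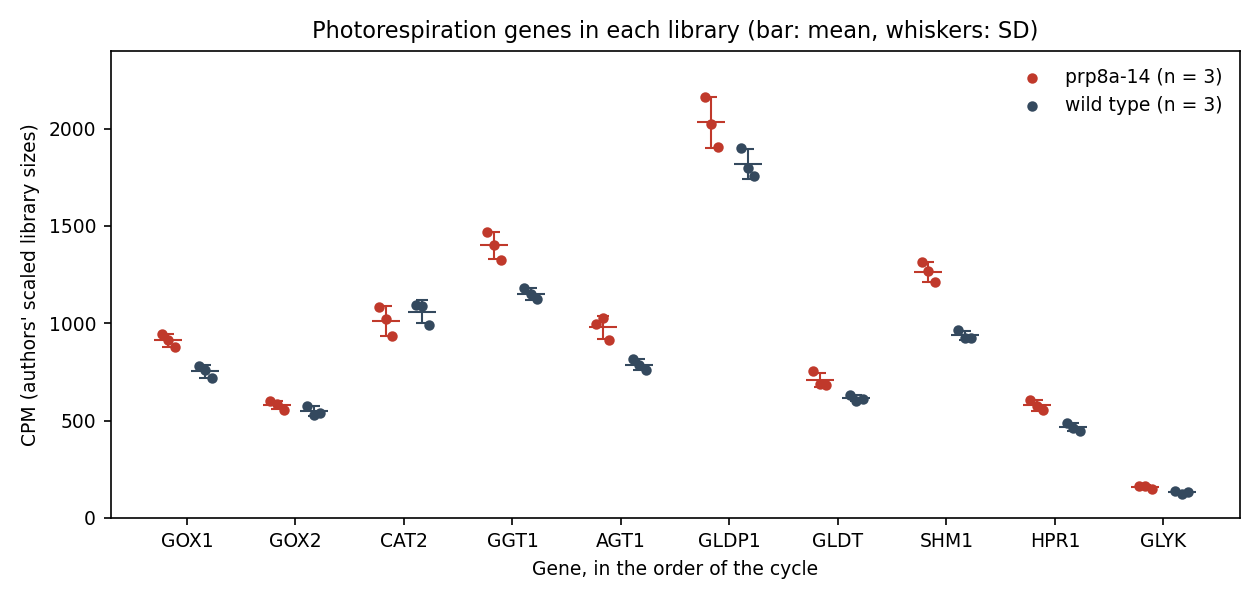
CPM of each of the 10 genes in each library, prp8a-14 in red and wild type in dark blue, with the group mean (bar) and SD (whiskers), n = 3 each. The prp8a-14 points lie above all wild type points for 8 genes and overlap them for GOX2 and CAT2.

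Peroxisomal glycolate oxidation was represented by GOX1, GOX2 and CAT2. Glycolate oxidase turns glycolate into glyoxylate with release of hydrogen peroxide, and GOX1 and GOX2 are its main leaf forms, encoded by neighbouring genes with no annotated gene between them. GOX1 stood at 946, 915 and 878 CPM in prp8a-14, against 782, 757 and 717 CPM in wild type. The groups did not overlap, and the log2 change was 0.28 (SE 0.05; limma with BH, adjusted p = 0.0013). GOX2 stood at 599, 584 and 555 CPM in prp8a-14, against 575, 528 and 539 CPM in wild type. Its groups overlapped, its log2 change was 0.08 (SE 0.05; limma with BH, adjusted p = 0.22), and the 95% interval ran from -0.03 to 0.19.

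CAT2, the catalase of leaf peroxisomes, had 1082, 1019.5 and 933 CPM in prp8a-14, against 1096, 1091 and 993 CPM in wild type. It was the only one of the 10 with a lower mean in the mutant, but the groups overlapped and the log2 change of -0.07 (SE 0.06) did not pass (limma with BH, adjusted p = 0.44; 95% interval -0.21 to 0.07). CAT2 did pass as lower with library totals (-0.16; limma with BH, adjusted p = 0.033) and with quantile normalization (-0.40; adjusted p = 9.2e-05). Over the alternatives run its adjusted p ranged from 9.2e-05 to 0.90. Because the size of a library cancels in a ratio of 2 genes within it, CAT2 was also set against GOX1, a pair chosen after the values were seen. The CAT2 to GOX1 count ratio was 1.14, 1.11 and 1.06 in prp8a-14, against 1.402, 1.44 and 1.38 in wild type. The 2 groups of ratios lay clear of each other, with a log2 difference of -0.35.

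The peroxisomal aminotransferases moved alike. GGT1, which makes glycine from glyoxylate and glutamate, had 1468, 1403 and 1327 CPM in prp8a-14, against 1179.8, 1149 and 1122 CPM in wild type, a log2 change of 0.28 (SE 0.05; limma with BH, adjusted p = 0.0019). AGT1, which uses serine as the amino donor and so feeds hydroxypyruvate to HPR1, had 994, 1029 and 914 CPM in prp8a-14, against 817, 784 and 761 CPM in wild type. Its log2 change was 0.31 (SE 0.06; limma with BH, adjusted p = 0.0010). In both genes every prp8a-14 library exceeded every wild type library. With quantile normalization neither passed, and GGT1 turned to -0.10.

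In the mitochondrion, glycine decarboxylase and SHM1 act together: the P and T proteins belong to the multi-enzyme complex that splits glycine, and SHM1 joins the freed carbon unit to a second glycine to give serine. SHM1 had the largest change of the 10 members, with 1314, 1267 and 1213 CPM in prp8a-14, against 965, 923 and 923 CPM in wild type. The groups were well apart, and the log2 change was 0.43 (SE 0.05; limma with BH, adjusted p = 5.7e-05), a level 34.9% higher. GLDT, the T protein gene, had 752, 689 and 685 CPM in prp8a-14, against 630, 602 and 613 CPM in wild type, a log2 change of 0.20 (SE 0.05; limma with BH, adjusted p = 0.0077). With library totals GLDT no longer passed (0.11; limma with BH, adjusted p = 0.066), and SHM1 was 0.05 with quantile normalization (adjusted p = 0.36).

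GLDP1, the P protein gene and the most abundant member by CPM, had 2164, 2023.5 and 1907 CPM in prp8a-14, against 1902, 1797 and 1755 CPM in wild type. The groups did not overlap, but replicate 6 of the mutant lay just above replicate 1 of wild type, and the log2 change of 0.16 (SE 0.06) missed the threshold (limma with BH, adjusted p = 0.073). It passed as higher without mutant replicate 6 (0.20; adjusted p = 0.024) and with voom weights (0.16; adjusted p = 0.038), and as lower with quantile normalization (-0.16; adjusted p = 0.047). The SHM1 to GLDP1 count ratio, for a pair chosen after the values were seen, was 0.607, 0.626 and 0.636 in prp8a-14, against 0.507, 0.514 and 0.526 in wild type. The groups of ratios did not overlap (exact two-sided permutation p = 0.10, the smallest that 3 against 3 libraries can give).

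The last steps convert hydroxypyruvate to glycerate (HPR1, peroxisome) and glycerate to phosphoglycerate (GLYK, chloroplast), which re-enters the Calvin cycle. HPR1 had 608, 574 and 553 CPM in prp8a-14, against 488, 464 and 449 CPM in wild type, a log2 change of 0.31 (SE 0.05; limma with BH, adjusted p = 0.00062). GLYK, the least abundant member, had 164, 163 and 149.8 CPM in prp8a-14, against 139, 120.3 and 131 CPM in wild type, a log2 change of 0.29 (SE 0.06; limma with BH, adjusted p = 0.0021). These were the 2 members that rose in all 14 alternatives, at 0.18 to 0.34 for HPR1 and 0.19 to 0.34 for GLYK. Leaving out any 1 library changed no call of the 10 members except that of GLDP1.

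**Figure D2:**
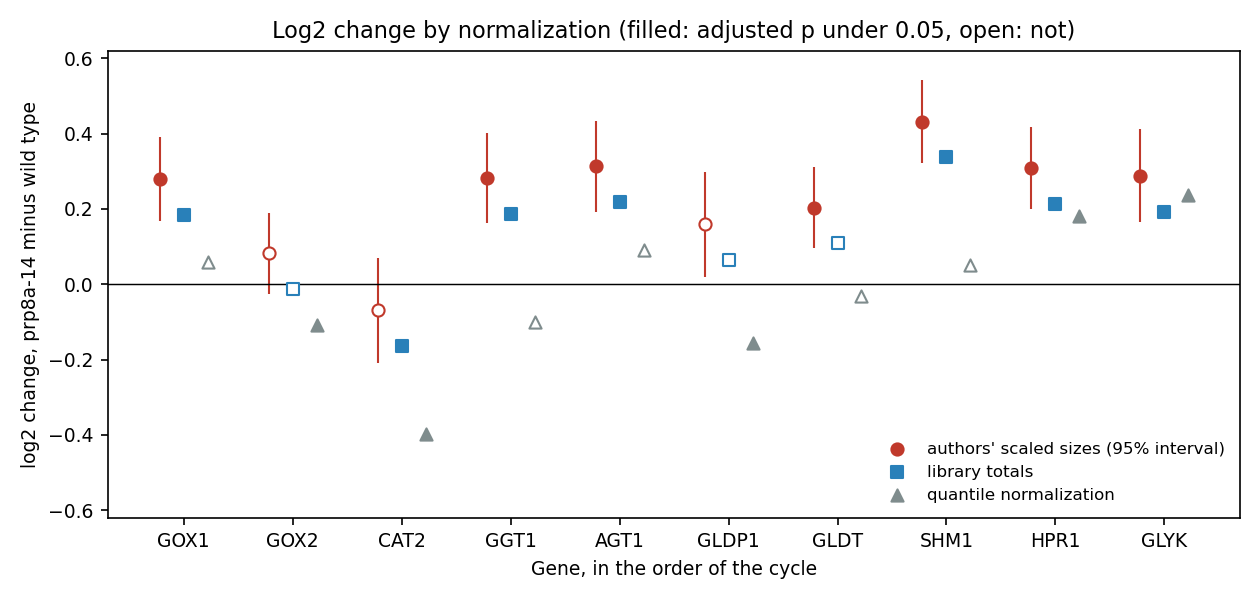
Log2 change of each of the 10 genes (prp8a-14 minus wild type) with the authors' scaled library sizes (circles, 95% interval), with library totals (squares) and with quantile normalization (triangles); filled symbols passed an adjusted p of 0.05. HPR1 and GLYK are filled above 0 under all 3, while the quantile values of GOX2, CAT2, GGT1, GLDP1 and GLDT lie below 0.

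The members varied together between libraries of the same genotype as well. Within prp8a-14, replicate 6 was the lowest library for all 10 members and replicate 4 the highest for 9, with AGT1 highest in replicate 5. Within wild type, replicate 1 was the highest for all 10. The order was not particular to the members. The Rubisco and activase genes summed to 27394, 26171 and 25048 CPM in mutant replicates 4, 5 and 6. In wild type their sum was highest in replicate 1 (21108 CPM). Genes of transport and nitrogen refixation had the same order, whereas the summed root markers were highest in mutant replicate 6. That place rested on the root marker IRT1. Without IRT1 the root marker sum was 202, 219 and 208 CPM in mutant replicates 4, 5 and 6. The median difference of the 10 members from their wild type means was 0.33, 0.29 and 0.21 in mutant replicates 4, 5 and 6, against 0.05, -0.01 and -0.04 in wild type replicates 1, 2 and 3 (log2 scale). Their summed level was 10093, 9666 and 9114 CPM in prp8a-14, against 8573, 8215 and 8002 CPM in wild type, and they took 0.928% ± 0.0321 of all counts in prp8a-14 and 0.851% ± 0.0238 in wild type (SD, n = 3 each). CAT2 shared this order of libraries within each genotype but not the difference between genotypes: its correlation with the mean profile of the 10 members over the 6 libraries was -0.04, whereas the other 9, which are part of that profile, had r of 0.88 to 0.99.

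Per kilobase of the longest annotated transcript, SHM1 (636 ± 25.5), GGT1 (635 ± 32.1), GLDP1 (567 ± 35.9) and GOX1 (554 ± 20.7) led in prp8a-14, followed by AGT1 (489 ± 29.5), CAT2 (389 ± 28.8), GLDT (353 ± 18.9), GOX2 (347 ± 13.3), HPR1 (336 ± 16.2) and GLYK (64.8 ± 3.21; CPM per kilobase, SD, n = 3). In wild type the order was GGT1 (522 ± 13.02), GLDP1 (507 ± 21.2), SHM1 (471 ± 12.2), GOX1 (457 ± 19.7), CAT2 (408 ± 22.4), AGT1 (393 ± 14.0), GOX2 (328 ± 14.9), GLDT (306 ± 6.89), HPR1 (272 ± 11.6) and GLYK (53.1 ± 3.84). SHM1 and GGT1, GLDP1 and GOX1, and GLDT, GOX2 and HPR1 differed from their neighbours by less than the larger of the SDs in prp8a-14. In wild type GGT1 and GLDP1, SHM1 and GOX1, and CAT2 and AGT1 did so. GLYK was far below all the others in both genotypes.

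All 10 members are spliced genes, with 4 exons (GLDT) to 15 exons (SHM1) in the longest transcript of the RefSeq annotation. GOX1 and GOX2 have 12 exons each, and GGT1 and GLDP1 have 14 each. A relation between the changes and exon number was not tested. Counts per gene do not show whether introns were retained. Shared reads between relatives were limited: no window of 150 bases, the read length, was identical between the transcripts of GOX1 and GOX2, and the longest identical run was 68 bases. GOX1, GLDP1 and CAT2 each overlap a gene on the opposite strand, and the sources used here do not say whether counting used strand, so their reads may be mixed. Those partners, AT3G14430, CBL10 and AT4G35080, stood at 4.82, 15.7 and 35.6 CPM in prp8a-14 and at 4.74, 14.1 and 34.1 CPM in wild type.

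Several members have a close relative in the same compartment, and their count ratio within a library shows how the forms were balanced. GOX1 to GOX2 was 1.58, 1.57 and 1.58 in prp8a-14, against 1.36, 1.43 and 1.33 in wild type, so GOX1 took a larger part of the pair in every mutant library. SHM1 exceeded SHM2, a second mitochondrial form, by 15.4, 15.0 and 14.1 in prp8a-14, against 10.2, 9.46 and 9.58 in wild type. GGT1 to GGT2, 28.2, 26.2 and 25.9 in prp8a-14, against 21.2, 20.5 and 20.6 in wild type, moved the same way.

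The HPR1 to HPR2 ratio, for the peroxisomal and the cytosolic reductase, averaged 8.82 ± 0.249 in prp8a-14 and 7.95 ± 0.194 in wild type (SD, n = 3 each). GLDP1 to GLDP2, the paired P protein genes, averaged 2.504 ± 0.0195 in prp8a-14 and 2.41 ± 0.0423 in wild type. CAT2 to CAT3 averaged 1.16 ± 0.0686 in prp8a-14 and 1.205 ± 0.0347 in wild type, and these groups overlapped. Of the 8 ratios formed, chosen after the values were seen, 7 did not overlap between the genotypes. Among all single genes, 24.3% lay wholly above and 23.7% wholly below wild type, and the share among other gene pairs was not computed. Each of the 7 ratios had an exact two-sided permutation p of 0.10, the smallest that 3 against 3 libraries can give (BH-adjusted over the 8 ratios, p = 0.11), so none can pass 0.05 in this design.

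**Figure D3:**
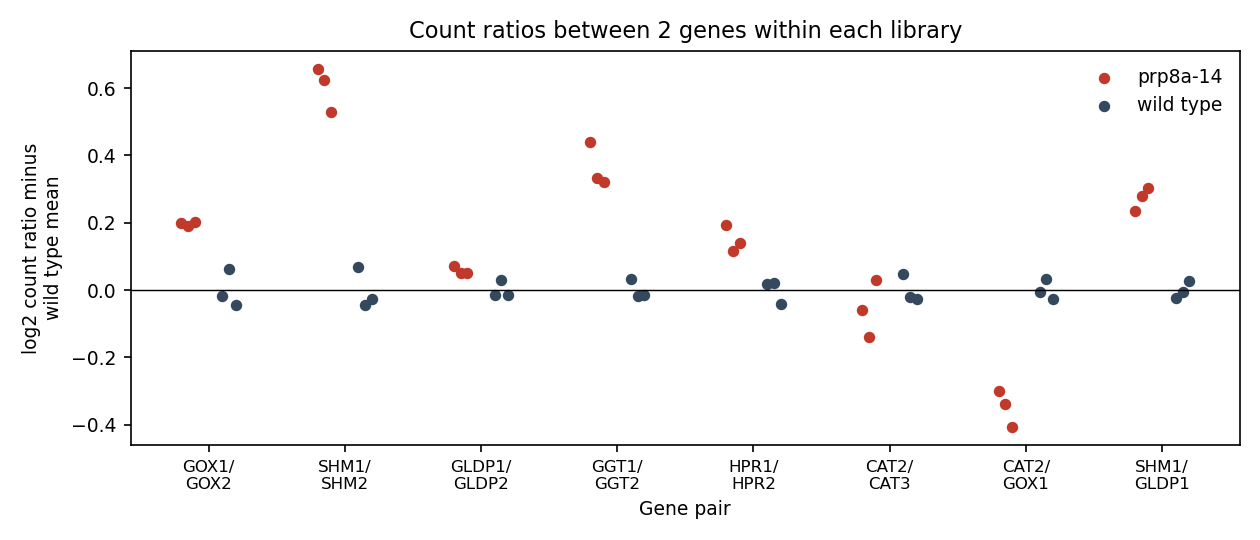
Log2 count ratio of the 8 gene pairs within each library, less the wild type mean, for prp8a-14 (red) and wild type (dark blue). The prp8a-14 points lie clear of the wild type points except for CAT2/CAT3, and lie below them for CAT2/GOX1.

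Other enzymes of the cycle did not share 1 direction. Of 12 measured, 4 rose and 3 fell, against 17.9% and 17.3% of all genes, with a median of -0.05. With library totals 2 rose and 7 fell, and with quantile normalization 4 rose and 6 fell. Phosphoglycolate phosphatase, which opens the cycle in the chloroplast, is encoded by the copies PGLP1A and PGLP1B; they rose by 0.56 and 0.63 (limma with BH, adjusted p = 0.00018 and 7.6e-05). PGLP1A stood at 21.8 ± 1.14 CPM in prp8a-14 and 14.8 ± 1.38 CPM in wild type, and PGLP1B at 24.6 ± 1.42 CPM in prp8a-14 and 15.97 ± 1.497 CPM in wild type (SD, n = 3 each). All 150-base windows of PGLP1A were also found in PGLP1B, so their separate values are uncertain and both rises may not be independent. How reads matching both copies were counted is not known, so their combined level is uncertain as well. GDCH3, an H protein of glycine decarboxylase, rose by 0.20 and another H protein gene, GDCH2, fell by 0.28. The third, GDCH1, had a change of -0.10 that did not pass.

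mtLPD2, a mitochondrial lipoamide dehydrogenase (the L protein, which also serves other complexes), fell by 0.47, with 96.1, 102 and 103.6 CPM in prp8a-14, against 137, 137 and 144 CPM in wild type. Its relative mtLPD1 stood at 209.9 ± 5.69 CPM in prp8a-14 and 212 ± 5.70 CPM in wild type (SD, n = 3 each). SHM2 fell by 0.17 (limma with BH, adjusted p = 0.0049), and HPR2 rose by 0.16 (limma with BH, adjusted p = 0.016). HPR2 lost its call in 6 of the 14 alternatives, among them library totals and limma without trend, and GDCH3 did not pass with library totals (0.10; limma with BH, adjusted p = 0.098) or nuclear totals.

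Of 11 genes of transport and nitrogen refixation 6 rose and 2 fell, against 17.9% and 17.3% of all genes. Their median was 0.16, though 3 rose with quantile normalization. PLGG1, the chloroplast carrier that exchanges glycolate for glycerate, had 189, 179 and 171 CPM in prp8a-14, against 129, 123 and 125 CPM in wild type, 0.52 higher on the log2 scale (SE 0.05, adjusted p = 7.2e-06 by limma with BH). BASS6, a second chloroplast exporter of glycolate, fell by 0.48 (adjusted p = 0.0018, limma with BH) at a low level of 6.37 ± 0.416 CPM in prp8a-14 and 8.89 ± 0.272 CPM in wild type (SD, n = 3 each). The directions of the 2 glycolate carriers were thus opposite, and both held in all 14 alternatives.

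Plastid glutamine synthetase GLN2, which captures the ammonia released by glycine decarboxylase, rose by 0.33, and the dicarboxylate carriers DIT1 and DIT2.1, which supply the nitrogen cycle, rose by 0.28 and 0.39. With quantile normalization GLN2 stood at -0.07 and did not pass. Ferredoxin-dependent glutamate synthase, GLU1, had a change of 0.16 that did not pass (limma with BH, adjusted p = 0.077), but passed as higher without mutant replicate 6 (0.23) and as lower with quantile normalization (-0.23). The peroxisomal malate dehydrogenase PMDH2 rose by 0.22, a call lost with quantile normalization, and its relative PMDH1, at 63.9 ± 0.789 CPM in prp8a-14 and 72.1 ± 0.903 CPM in wild type (SD, n = 3 each), fell by 0.17. BOU, a mitochondrial carrier needed for glycine decarboxylase activity, rose by 0.14, a call lost in 8 of the 14 alternatives.

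Among 13 relatives of the members that act outside the main cycle, 2 rose and 5 fell, against 17.9% and 17.3% of all genes. Their median was -0.01, and 0 rose with library totals. The cytosolic SHM4 fell by 0.43, to 264, 228 and 257 CPM in prp8a-14, against 325, 341 and 340 CPM in wild type, and SHM7 fell by 0.58 and SHM5 by 0.83 (limma with BH, adjusted p = 0.00011, 8.6e-05 and 0.0039). Of the 7 SHM genes listed, SHM1 was thus the only one that rose with the authors' scaled sizes. GOX3, a glycolate oxidase relative, fell by 0.51, and AGT2, an alanine-glyoxylate aminotransferase of the mitochondrion, fell by 0.15, a call lost in 5 of the 14 alternatives (limma without trend, and leaving out replicate 1, 2, 4 or 5). The 2 that rose were AGT3 (0.24), whose call was lost in 6 of the 14 alternatives, and the catalase CAT1 (0.14), whose call was lost in 10 of them.

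**Figure D4:**
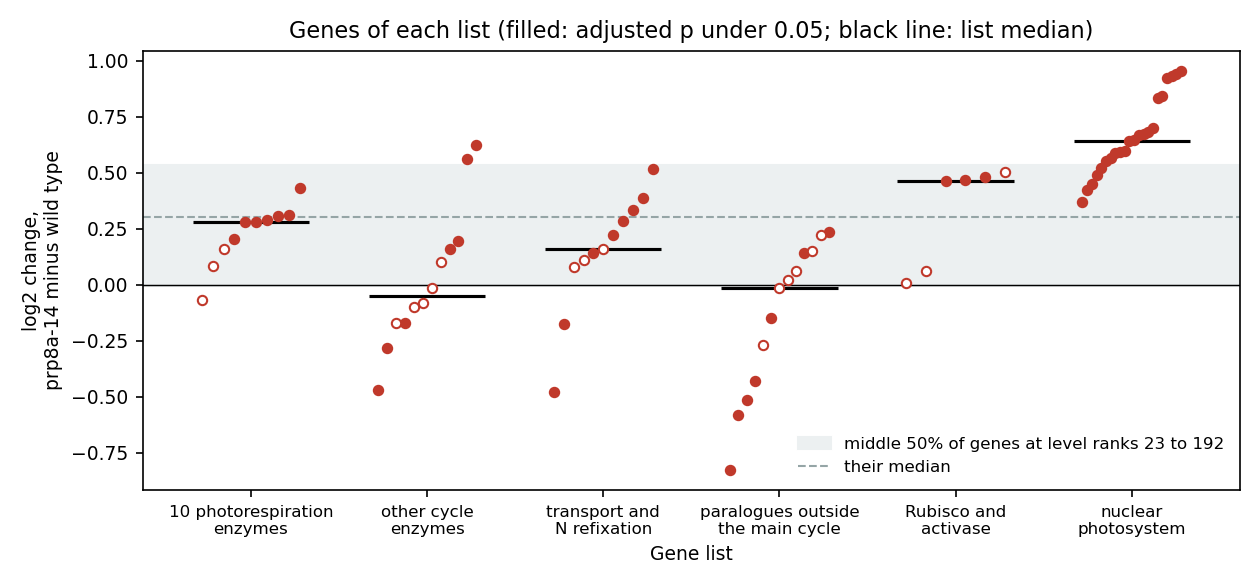
Log2 change of every gene of 6 lists (filled: adjusted p under 0.05; black line: list median), beside the middle 50% and the median of the 161 other genes at level ranks 23 to 192. The 10 enzymes have a median of 0.28 close to the dashed line at 0.30, the nuclear photosystem genes lie higher at 0.64, and the other cycle enzymes and outside paralogues spread on both sides of 0.

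Some genes of Rubisco, whose oxygenation supplies the cycle, and the markers of green tissue were higher beside the members. Of 6 Rubisco and activase genes 3 rose and 0 fell, against 17.9% and 17.3% of all genes (1 rose and 1 fell with quantile normalization). RBCS1A rose by 0.47, RBCS3B by 0.47 and Rubisco activase RCA by 0.48. The small subunit genes RBCS1B (0.06, adjusted p = 0.49) and RBCS2B (0.01, adjusted p = 0.93) did not pass by limma with BH. The calls of RBCS1A and RBCS3B were lost with quantile normalization. Sequence shared between the small subunit copies was not measured, so how reads were split among them is uncertain. The plastid gene of the large subunit, RBCL, had 122, 82.9 and 66.9 CPM in prp8a-14, against 52.2, 41.3 and 109 CPM in wild type. It did not pass (0.51, adjusted p = 0.21 by limma with BH), though it did without wild type replicate 3 (0.92). The RNA was poly-A selected, so these counts may not measure the level of a plastid transcript. All 22 nuclear photosystem genes rose (21 with quantile normalization), with a median of 0.64. Their summed level was 45435 to 51563 CPM in prp8a-14 and 31016 to 31567 CPM in wild type. LHCB2.2 and LHCB2.1 had the largest rises, 0.96 and 0.94, and sequence shared between them was not measured either.

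Of 15 root markers 10 fell and 2 rose, against 17.3% and 17.9% of all genes, with a median of -0.40. The Casparian strip genes CASP5 and CASP4 fell by 1.22 each, whereas the iron transporter gene IRT1 and SCR rose by 1.12 and 0.25. Their summed level was 366 to 380 CPM in prp8a-14 and 297 to 335 CPM in wild type, but without IRT1, a sum formed after its size was seen, it was 202 to 219 CPM in prp8a-14 and 228 to 256 CPM in wild type. Of 11 seed markers 8 rose and 0 fell, against 17.9% and 17.3% of all genes. SESA3 rose by 3.37 and CRC by 2.56, from wild type means of 0.139 and 0.277 CPM. Summed seed marker levels were 13.6 to 25.6 CPM in prp8a-14 and 5.57 to 9.76 CPM in wild type. Without mutant replicate 4, 5 of the 11 seed genes rose and 1 fell. Limma without trend called 4 as higher, and the fit to genes averaging 5 CPM or more called 1. CASP5, the lowest root marker, stood at 1.104 ± 0.0644 CPM in prp8a-14 and 2.62 ± 0.547 CPM in wild type (SD, n = 3 each), and SESA3 was at 0 in 1 wild type library. In whole seedlings, a different share of green cells and a different amount of each RNA per cell cannot be told apart, and the part of tissue makeup in the members' levels was not tested.

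The genes whose levels followed the mean profile of the 10 members most closely over the 6 libraries were ALS, FAX4, ERDJ2B, AOC2 and CER1, each with a Pearson r of at least 0.995. ALS encodes acetolactate synthase of branched-chain amino acid synthesis, AOC2 an allene oxide cyclase of jasmonate synthesis, and CER1 an enzyme of wax alkane formation. The likeness is a description over 6 points that fall into 2 genotypes, and 1331 of the 9343 candidate genes had an r of 0.9 or more. ALS stood at 0.26 and CER1 at 0.55 on the log2 scale of the change.

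The authors' deposited table gave log2 changes of 0.43 for SHM1, 0.30 for HPR1, 0.28 for GOX1 and -0.07 for CAT2. In the authors' deposited table GLDP1 had an adjusted p = 0.014 at 0.16, whereas the limma fit on the 6 libraries (BH, adjusted p = 0.073) did not call it.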

How the data were processed

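Poly-A selected RNA was sequenced as paired reads on a NovaSeq instrument, per the labels' protocols. The submitters' processing notes list limma, edgeR, Salmon 0.8.2, featureCounts 1.4.6-p5 and STAR 2.5.1a without saying what each did. The sources used here name no genome build, annotation or strand setting, so no coordinates or sequences are printed. The deposited log2 values hold log2 of CPM with 0.5 added to each count, relative to library sizes the authors scaled; with a tolerance of 0.1, 100% of the values gave whole counts. Per the file headers the table also holds the authors' own log2 fold changes, p-values, a statistic that is a score, and the number of transcripts per gene. Of 20079 lines, 272 repeat a gene with equal values, and each gene was used once. The table's 3 further per-sample columns could be tied to none of the samples and were left unused; whether they entered the authors' scaling is not known.

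CPM are recovered counts over the scaled sizes. All 19807 genes were fitted with limma 3.58.1 (R 4.3.3; eBayes with trend) on the deposited log2 values of the 6 libraries, two-sided, BH over all genes, called at an adjusted p under 0.05, and tested on simulated data. Intervals on a log2 change are 95% intervals of that fit. Exons, transcript lengths and windows shared between transcripts came from RefSeq TAIR10.1, matched by gene identifier. Python 3.11.15, scipy 1.17.1 and matplotlib 3.10.9 did the rest. The members and lists were chosen with earlier results of these data known. Named were all members, list genes past the threshold, up to 2 markers a direction, and the 5 genes of closest profile among those that have a symbol and average 5 CPM or more; other names were chosen after their values were seen. The alternatives were quantile normalization, library totals, nuclear genes with nuclear totals, only genes averaging 5 CPM or more, limma without trend, voom weights, pseudocounts of 0.1 and 1 CPM, and each library left out.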

Additional observations from a re-analysis of the deposited data

How the results depend on the processing

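The number of genes changed stayed within 1.5 times 6977 under the 14 alternatives (5405 to 7964; 5405 to 6416 with 1 library left out). Quantile normalization gave 2 members that rose and 3 that fell, a median of 0.0102, and a summed level of 0.954 times wild type against 1.16. Library totals gave 1 member that fell (CAT2), a median of 0.19 and a ratio of 1.09; nuclear totals gave 1 that fell (CAT2) and a median of 0.20. The median over all genes was -0.09 with library totals and -0.08 with nuclear totals. Rescaling library sizes shifts every gene alike, so the members' median necessarily stayed 0.28 above it in both. With quantile normalization the members' median stood 0.0012 above that of all genes. Library totals gave 26.5% of the calls as higher, against 50.8% with the authors' scaled sizes. With 1 library left out, 7 to 8 members rose, 0 fell, the median was 0.25 to 0.31 and the summed ratio 1.14 to 1.196. Signs that turned with quantile normalization were GOX2 (-0.11), GGT1 (-0.10), GLDP1 (-0.16), GLDT (-0.031), GLDP2 (-0.12), GLN2 (-0.072), GLU1 (-0.23), RBCS1A (-0.026), RBCS1B (-0.29) and RBCS2B (-0.098). The cause was not tested. No paired analysis was possible because the genotypes share no replicate numbers. Every member had at least 6299 counts in each library, so the spread between 3 libraries, not counting, set the precision.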
